A study of Mus musculus with 48 samples.

Results

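The 12 amygdala libraries with the highest level of Ppp1r1b and the 12 with the lowest were compared, out of 48 libraries in all. Ppp1r1b encodes DARPP-32, a phosphoprotein of dopamine-responsive neurons that is abundant in the striatum. All 48 libraries were ranked by its TPM (a transcript level corrected for transcript length and scaled to the same total in every library), and the sets are called striatum-rich and striatum-poor below. The sets were therefore chosen from measured values, so every difference between them is given as a description without a test.

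Each library came from a punch of the right amygdala of a female mouse of 8 to 11 weeks. There were 6 groups of 8 libraries: WT and Brd1+/- mice given saline vehicle, 10 mg/kg imipramine (IMN) or 5 mg/kg fluoxetine (FLX). The labels give C57BL/6NTac-Brd1 as the strain of every mouse, WT included. Brd1+/- mice, of the line named C57BL/6NTac-Brd1tm1.2Arte/AborgMmucd in the methods of the study, carried 1 inactivated allele, made with a targeting vector that set loxP sites around exons of Brd1, which encodes a chromatin scaffold protein. Those methods add that behaviour had been tested beforehand, with a forced swim last, and that the punch was 1 mm wide from a slice 1 mm thick. No label says which part of the amygdala a punch held.

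The striatum consists mostly of GABAergic projection neurons. Neurons of the direct pathway carry the dopamine receptor Drd1 with the peptide precursors Tac1 and Pdyn, and those of the indirect pathway carry Drd2, the adenosine receptor Adora2a and the enkephalin precursor Penk. Both receive dopamine, and their cyclic AMP cascade runs from Golf and adenylyl cyclase 5 to phosphodiesterases and DARPP-32. The striatum borders the amygdala, and some neurons of the central amygdala and the intercalated cell clusters also contain DARPP-32.

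Ppp1r1b (chr11:98348404-98357796 in GRCm38, plus strand) ranged from 25.1 to 4218 TPM over the 48 libraries, a 168-fold range. The striatum-rich set spanned 1247 to 4218 TPM with a median of 2764, and the striatum-poor set spanned 25.1 to 72.7 TPM with a median of 55.7. The steps at the edges were 1.29-fold and 1.06-fold. The first library outside the striatum-rich set, WT FLX replicate 4, had 966 TPM, while the first outside the striatum-poor set, Brd1+/- IMN replicate 1, had 76.9 TPM. Just inside those edges, Brd1+/- IMN replicate 8 had 1247 TPM and WT IMN replicate 6 had 72.7 TPM. In fold terms the 12 highest libraries spanned 3.38-fold and the 12 lowest 2.89-fold, and the largest step between neighbours was the last, 1.83-fold from 45.97 to 25.1 TPM.

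**Figure D1:**
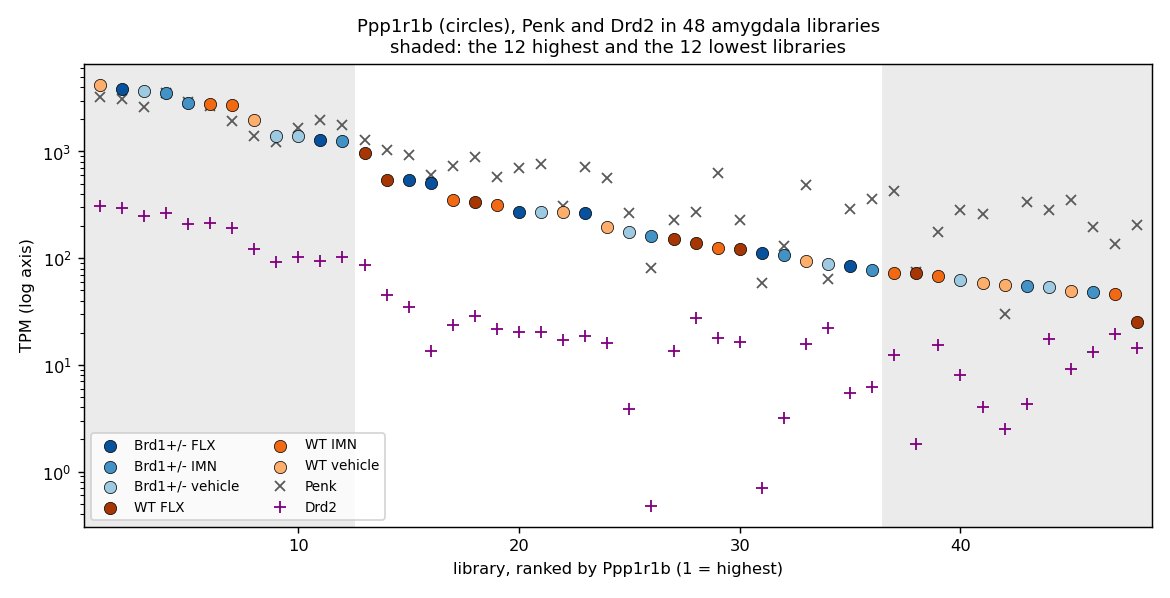
Level of Ppp1r1b (circles, coloured by group), Penk (crosses) and Drd2 (plus signs) in TPM on a log axis, for each of the 48 libraries in order of Ppp1r1b. The 12 libraries on the left lay between 1247 and 4218 TPM of Ppp1r1b, and their Penk and Drd2 levels lay above those of all 12 libraries on the right.

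Both sets mixed genotypes and treatments unevenly. The striatum-rich set held 8 Brd1+/- and 4 WT libraries, and the striatum-poor set held 4 Brd1+/- and 8 WT libraries. By group, the striatum-rich set took 3 libraries each from Brd1+/- vehicle and Brd1+/- IMN, 2 each from Brd1+/- FLX, WT vehicle and WT IMN, and 0 from WT FLX. The striatum-poor set took 3 each from WT vehicle and WT IMN, 2 each from WT FLX, Brd1+/- vehicle and Brd1+/- IMN, and 0 from Brd1+/- FLX. Brd1 itself, the targeted gene, had a mean of 26.0 ± 2.90, 23.4 ± 4.84 and 23.5 ± 3.49 TPM (SD, n = 8) in Brd1+/- mice given vehicle, IMN and FLX, against 35.6 ± 5.09, 36.9 ± 2.83 and 32.9 ± 4.45 TPM in WT mice. Its limma adjusted p was 0.0512, 0.102 and 0.0362 in those 3 comparisons. Between the sets, Brd1 was 0.37 lower on the log2 scale in the striatum-rich set, with overlapping levels (16.6 to 37.6 against 21.8 to 41.0 TPM). The median log2 difference over all genes was -0.16. Inside single groups, where genotype was the same, the 4 libraries highest in Ppp1r1b were compared with the 4 lowest. The log2 difference of Brd1 was then -0.43 to -0.01 in 5 groups and 0.04 in Brd1+/- vehicle. The part of the genotype imbalance in the difference between the sets was not tested.

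The ranking gene was compared between groups by label. Its largest difference was 1.27 on the log2 scale, higher in Brd1+/- FLX (8.71 ± 1.80, SD, n = 8) than in WT FLX (7.44 ± 1.67), with p = 0.168 in a two-sided exact permutation test. Over the 7 comparisons of genotype or drug, every p adjusted by Benjamini-Hochberg was 0.931, and the smallest p that the permutations can give was 0.000155. The spread of Ppp1r1b inside each group was therefore larger than any difference between groups.

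Across all genes, 25298 passed the filter on low values in the 24 libraries. Of these, 324 (1.28%) were higher in every striatum-rich than in any striatum-poor library, and 425 (1.68%) were lower without overlap. The median gene was 0.16 lower on the log2 scale in the striatum-rich set, and scaling by median ratios moved that median to 0.01 and the split to 407 higher and 249 lower. The number of genes above 0 TPM was alike, 25085 ± 625 (SD, n = 12) in the striatum-rich and 24911 ± 940 in the striatum-poor set. Differences below are of the mean of log2(TPM + 0.1), which understates the change of low genes.

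The 2 other markers of striatal tissue followed Ppp1r1b. Penk had 1227, 2304 and 3536 TPM as lowest, median and highest level in the striatum-rich set, and 29.7, 232 and 429 TPM in the striatum-poor set. Drd2 had 91.9, 201 and 305 TPM in the striatum-rich set and 1.83, 10.8 and 19.3 TPM in the striatum-poor set. Every striatum-rich library was above every striatum-poor library for both genes. The log2 difference was 3.54 for Penk (SD 0.51 and 1.09, n = 12 in each set) and 4.38 for Drd2 (SD 0.68 and 1.13).

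To describe what else went with striatal tissue, 44 genes of the striatum were listed in 4 roles, of which 43 were found in the table by symbol (Gpr52 was not) and all 43 passed the filter. Of the 43, 27 were higher without overlap and 0 were lower without overlap, beside the 1.28% and 1.68% of all genes given above. A log2 difference above 1 was seen for 41 of the 43, beside 5.17% of all genes, and one below -1 for 0, beside 8.11%. The median log2 difference of the members was 2.28, against -0.16 over all genes. As Ppp1r1b ranked the libraries, these counts describe what the ranking selected. In bulk tissue, more striatal cells in a punch and more RNA per cell cannot be told apart.

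**Figure D2:**
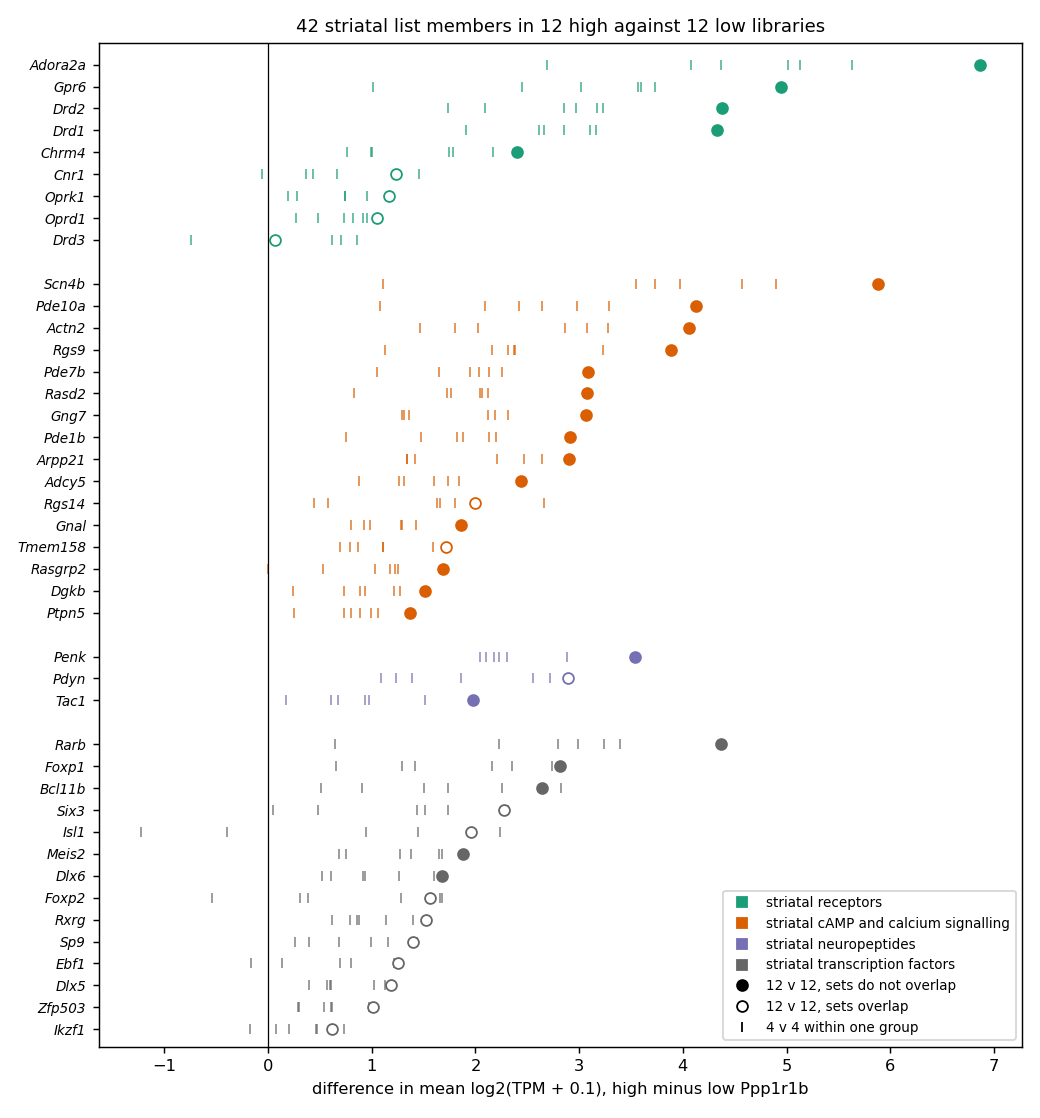
Difference in mean log2(TPM + 0.1) between libraries with high and low Ppp1r1b for 42 of the 43 striatal list members, by role. Circles give the 12 against 12 libraries (filled where the sets do not overlap, 26 of the 42) and ticks give the 4 highest against the 4 lowest libraries inside each of the 6 groups.

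The receptors covered the widest range of any role, from 0.07 to 6.87 on the log2 scale with a median of 3.37, and 6 of 10 were higher without overlap. Adora2a, the adenosine receptor of indirect pathway neurons (chr10:75316877-75334784, plus strand), had 148, 377 and 547 TPM in the striatum-rich set and 1.29, 2.44 and 11.6 TPM in the striatum-poor set. Its log2 difference of 6.87 (SD 0.65 and 0.83) was the largest of the 43 members, and its levels did not overlap. Drd1 had 82.5, 164 and 205 TPM in the striatum-rich set and 1.99, 6.88 and 16.05 TPM in the striatum-poor set, with a log2 difference of 4.33. Drd1, like Drd2, was thus low but listed above 0 in every striatum-poor library.

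The orphan receptor Gpr6, enriched in striatal projection neurons, spanned 32.8 to 119.7 TPM in the striatum-rich set and 0.297 to 5.93 TPM in the striatum-poor set, and was 4.95 higher. The muscarinic receptor Chrm4 was 2.40 higher, with 48.8 to 119 TPM against 3.21 to 38.4 TPM. These receptors again showed sets that did not overlap. The opioid receptors Oprd1 and Oprk1 and the cannabinoid receptor Cnr1 were 1.05, 1.17 and 1.23 higher with overlapping sets. Drd3, a dopamine receptor known from the ventral striatum, spanned 0 to 2.58 TPM in the striatum-rich and 0 to 2.27 TPM in the striatum-poor set, so that it showed no separation.

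The ratio of Drd1, of the direct pathway, to Drd2, of the indirect pathway, was also taken in TPM. It lay between 0.67 and 1.32 in the striatum-rich set (median 0.81) and between 0.103 and 3.62 in the striatum-poor set (median 1.35). The striatum-rich punches were thus close to each other in this ratio while the striatum-poor punches were spread widely. In the 24 libraries between the sets the ratio ran from 0.166 to 8.73. Which cells carried Drd1 and Drd2 in punches where both were low was not tested, so the ratio there gives no pathway balance. Of 6 direct pathway markers, 3 were higher without overlap, with a median log2 difference of 2.19, and of 6 indirect pathway markers found, 4 were, with a median of 3.96. Isl1, a direct pathway transcription factor, overlapped (6.19 to 35.55 against 0 to 29.9 TPM).

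Genes of cyclic AMP and calcium signalling were the most regular role, since 14 of 16 were higher without overlap and all 16 were above 1 on the log2 scale (median 2.91, range 1.37 to 5.88). Scn4b, the sodium channel beta-4 subunit, had 207, 765 and 1267 TPM in the striatum-rich set and 2.87, 8.49 and 72.5 TPM in the striatum-poor set. Pde10a, a phosphodiesterase that degrades cyclic AMP and cyclic GMP, had 214, 578 and 837 TPM against 18.1, 26.1 and 34.3 TPM. The striatum-poor libraries lay closer together for Pde10a (SD 0.26 on the log2 scale) than the striatum-rich ones (SD 0.75), and neither gene overlapped.

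Rgs9, which speeds the turn-off of G proteins, was 3.89 higher, and Actn2, an actin crosslinker of dendritic spines, was 4.06 higher. Adcy5, the main striatal adenylyl cyclase, was 2.44 higher, and Gnal, the alpha subunit of Golf, 1.86 higher, both below the role's median of 2.91. Gng7, a G protein gamma subunit, was above that median at 3.06. Ptpn5, the striatum-enriched phosphatase STEP, was the least changed of the role at 1.37. It had 116 to 221 TPM in the striatum-poor set, so it was well measured there too. Rgs14 and Tmem158 were the only members of this role whose sets overlapped.

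Among the neuropeptides, Tac1, the precursor of substance P, had 276, 464 and 692 TPM against 27.8, 122 and 246 TPM, without overlap and with a log2 difference of 1.97. Pdyn, the dynorphin precursor, had 69.7, 138 and 234 TPM against 0.518, 24.8 and 77.0 TPM, and its sets overlapped. Along the ranking the peptides parted. Median Penk went from 2304 TPM at ranks 1 to 12 to 726, 248 and 232 TPM in the next 12, the 12 after those and the last 12, and median Pdyn from 138 to 117, 32.7 and 24.8 TPM. Median Tac1 was 464 TPM at the top 12 ranks, then 73.5, 104 and 122 TPM, so that its lowest median was not at the lowest ranks of Ppp1r1b.

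The transcription factors showed the smallest differences, with 5 of 14 higher without overlap and a median of 1.62. Those 5 were Rarb, Foxp1, Bcl11b, Meis2 and Dlx6. Rarb, the retinoic acid receptor beta, had 16.8, 53.0 and 76.2 TPM in the striatum-rich set and 0.956, 2.23 and 3.95 TPM in the striatum-poor set, a log2 difference of 4.37 (SD 0.66 and 0.56). Foxp1 and Bcl11b, which act in the differentiation of striatal projection neurons, were 2.82 and 2.64 higher. Ikzf1 was the only one under 1 on the log2 scale, at 0.61.

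Promoter sequences were available for 33 of the 43 members, and 3 are shown because the genes differed by more than 4 on the log2 scale without overlap and because 2 of them held a textbook motif of cyclic AMP or retinoic acid signalling. Each line gives the 250 bases before the start of the RefSeq transcript in GRCm38.p6, on the strand of the gene, with the motif in capitals.
Gpr6 (chr10:41072291-41072540, minus strand): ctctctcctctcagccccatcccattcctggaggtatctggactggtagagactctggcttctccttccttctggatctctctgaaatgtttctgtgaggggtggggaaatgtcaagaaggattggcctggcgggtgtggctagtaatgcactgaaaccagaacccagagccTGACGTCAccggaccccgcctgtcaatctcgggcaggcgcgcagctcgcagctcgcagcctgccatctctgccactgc
Rarb (chr14:16575477-16575726, minus strand): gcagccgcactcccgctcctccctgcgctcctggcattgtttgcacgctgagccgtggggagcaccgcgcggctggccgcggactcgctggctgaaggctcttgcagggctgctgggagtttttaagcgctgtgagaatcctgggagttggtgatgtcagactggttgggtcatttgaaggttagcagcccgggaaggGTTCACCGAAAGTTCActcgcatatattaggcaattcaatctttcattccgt
Drd2 (chr9:49340153-49340402, plus strand): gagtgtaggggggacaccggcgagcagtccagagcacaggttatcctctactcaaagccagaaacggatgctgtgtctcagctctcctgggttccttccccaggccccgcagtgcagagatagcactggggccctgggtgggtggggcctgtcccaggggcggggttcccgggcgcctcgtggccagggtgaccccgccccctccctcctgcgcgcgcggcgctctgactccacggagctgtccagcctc

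The capitals in Gpr6 mark the cyclic AMP response element TGACGTCA, 70 bases before the start. That element, searched on both strands, was in 1.55% of all 32851 promoters of the same length. The 33 members had 56 promoters, and Gpr6 was the only member to hold it, about as rare as among all promoters. The capitals in Rarb mark a match to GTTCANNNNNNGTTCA, the direct repeat known from retinoic acid response elements, ending 36 bases before the start. This repeat was in 22 of the 32851 promoters (0.067%), and Rarb was the only member holding it. The Drd2 window held neither motif. A match describes the letters in the window and is not evidence of binding in these punches.

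The direction of the differences was then checked inside each of the 6 groups, with the 4 libraries highest and the 4 lowest in Ppp1r1b, so that genotype and drug were the same on both sides. Of the 43 members, 37 were higher in all 6 groups, beside 7.15% of all genes, and 0 were lower in all 6, beside 18.9%. The other 6 were Cnr1, Drd3, Foxp2, Ebf1 and Ikzf1, each higher in 5 groups, and Isl1, higher in 4. Penk was higher by 2.04 to 2.88 and Drd2 by 1.73 to 3.23 on the log2 scale, with WT FLX lowest for both. WT FLX, which had no striatum-rich library, also gave the smallest difference for Adora2a at 2.69, against 5.63 in Brd1+/- vehicle. With sets balanced at 2 high and 2 low libraries per group, 21 members were higher without overlap, beside 149 of all 25252 genes tested.

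By the rule of largest difference with the same sign in all 6 groups, 12 genes were named in each direction. The 12 higher genes were Sh3rf2, Cd4, Adora2a, Gm39043, Ido1, Ptprv, Lrrc10b, Scn4b, Ankk1, Asb11, Serpina9 and Ptpn7, and all had sets that did not overlap. Sh3rf2, which encodes a RING finger protein, had 9.66, 25.8 and 33.6 TPM in the striatum-rich set and 0, 0 and 0.149 TPM in the striatum-poor set. Cd4, known as a coreceptor of T cells, had 18.3, 52.8 and 95.6 TPM against 0, 0.352 and 0.456 TPM. Lrrc10b, a leucine-rich repeat gene, had 112, 375 and 609 TPM against 1.23, 3.98 and 6.38 TPM. None of these levels overlapped between the sets.

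Several of the others were low or unlisted on the striatum-poor side. Ido1, a tryptophan-degrading enzyme, had 7.52 to 32.3 TPM against 0 to 0.515 TPM. Gm39043, a long noncoding RNA, had 2.80 to 23.6 TPM and was listed at 0 in all 12 striatum-poor libraries. Ankk1 (chr9:49415194-49427021, minus strand) had 3.01 to 13.4 TPM against 0 to 0.193 TPM, and lies just beyond the end of Drd2 (chr9:49340627-49408177, plus strand). Whether counting used strand is not given in the sources used here, so Ankk1 reads and reads running past the end of Drd2 cannot be told apart.

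The 12 named lower genes were Avp, Dlk1, Oxt, Pmch, Lbhd2, Arhgap36, Otp, Calb2, Irs4, AW551984, Glra1 and Igsf1. Avp, Oxt and Pmch encode vasopressin, oxytocin and melanin-concentrating hormone, peptides of hypothalamic neurons, and Otp is a homeobox gene of the hypothalamus and medial amygdala. Calb2, which encodes calretinin, had 19.7, 157 and 387 TPM in the striatum-poor set and 0.914, 2.55 and 22.6 TPM in the striatum-rich set. Dlk1, a Notch-like membrane protein, had 5.76, 15.7 and 94.7 TPM in the striatum-poor set and was listed at 0 in 10 striatum-rich libraries. Dlk1 and Irs4 were the only ones of the 12 whose sets did not overlap.

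The striatum-poor punches were not alike. Avp spanned 0 to 737 TPM there with a median of 59.4, Pmch 0 to 5702 TPM with a median of 48.6, and Hcrt, the orexin precursor, 0 to 3878 TPM with a median of 0.702. Among the striatum-poor libraries, WT IMN replicate 4 was highest for Pmch and Hcrt, and WT FLX replicate 1 was highest for Avp. Outside both sets, Brd1+/- IMN replicate 4 had 1410 TPM of Avp, and WT FLX replicate 2 had 3130 TPM of Pmch. Oxt was listed at 0 in 4 striatum-poor libraries and in all 12 striatum-rich ones. The summed level of the 16 hypothalamic and medial amygdala markers was 12.6 to 49.4 TPM in the striatum-rich and 22.1 to 10767 TPM in the striatum-poor set. Of the 14 that passed the filter, 11 were more than 1 lower on the log2 scale (median -4.65), beside 8.11% of all genes. Lower without overlap were 0 of them, beside 1.68% of all genes.

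Slc17a6, the vesicular glutamate transporter of subcortical neurons, was listed above 0 in every library of both sets. It had 13.3, 74.6 and 128 TPM in the striatum-poor set and 0.085, 3.31 and 13.4 TPM in the striatum-rich set, so that the sets touched at their edges. The cortical and basolateral transporter Slc17a7 ran from 1.87 to 685 TPM in the striatum-rich and from 3.42 to 955 TPM in the striatum-poor set. Neither set was therefore uniform in cortical-type excitatory neurons. The 12 markers of that list had a median of -0.55 with 0 separated, beside 1.28% of all genes higher and 1.68% lower without overlap. WT vehicle replicate 5, at 955 TPM of Slc17a7, was listed at 0 for Avp, Oxt, Pmch and Hcrt.

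**Figure D3:**
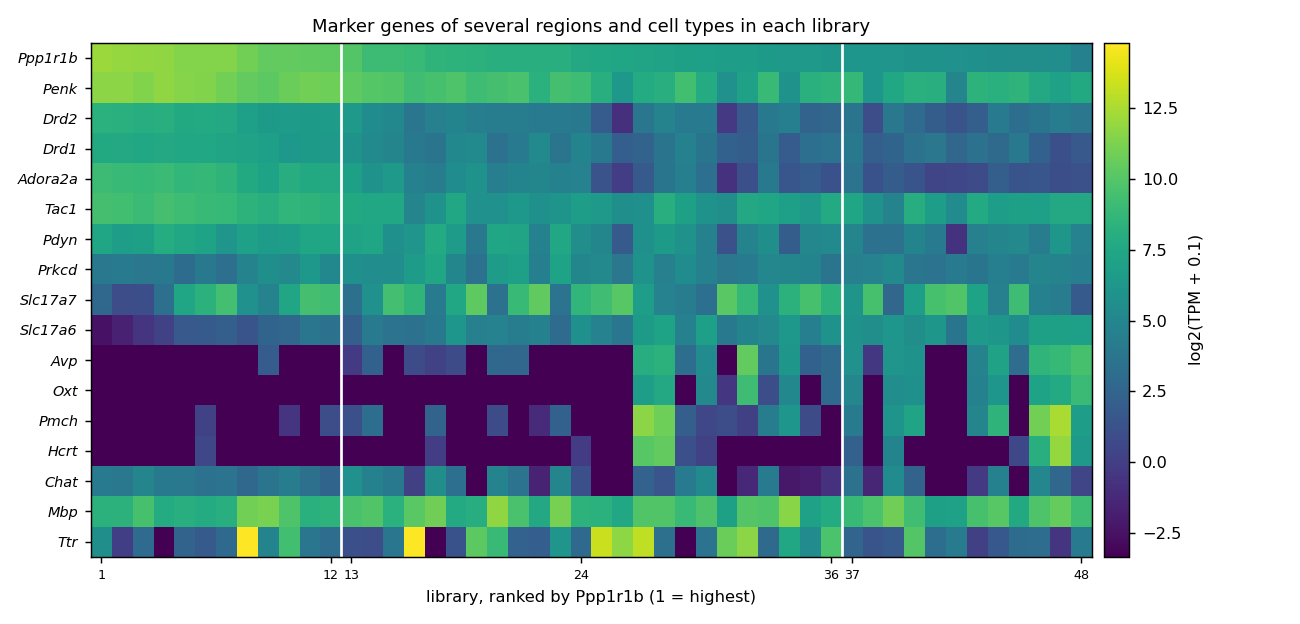
Level of 17 marker genes as log2(TPM + 0.1) in each of the 48 libraries, ordered by Ppp1r1b, with white lines after ranks 12 and 36. The striatal genes had their highest medians in the first 12 libraries, though Tac1 and Drd2 did not fall steadily further right. Avp, Oxt, Pmch and Hcrt were high in some libraries on the right and at or near 0 on the left.

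Markers of the central amygdala, which also has DARPP-32 neurons, were checked because they could rank punches in the same way. Of 8 markers, 0 were higher and 0 lower without overlap, beside 1.28% and 1.68% of all genes. At those shares, 0 in a list this short does not set it apart from all genes. The summed level of the markers was 404 to 1350 TPM in the striatum-rich and 521 to 1696 TPM in the striatum-poor set. The members went both ways. Wfs1 and the serotonin receptor Htr2a were 1.12 and 0.99 higher on the log2 scale in the striatum-rich set and higher in all 6 groups, while the tachykinin precursor Tac2 was 4.51 lower and lower in all 6. The peptide precursors Crh, Nts and Sst were 1.47, 1.36 and 0.66 lower, each in 4 or 5 of the groups. Prkcd, which marks a class of lateral central amygdala neurons, had 8.40, 16.4 and 79.6 TPM against 11.99, 22.0 and 40.7 TPM, a log2 difference of 0.05. Its median was highest between ranks 13 and 24, at 51.5 TPM, and its highest library there, WT IMN replicate 5, had 164 TPM beside 348 TPM of Ppp1r1b. Libraries with intermediate Ppp1r1b thus included those highest in this central amygdala marker.

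Of the 3 intercalated cell markers, Foxp2 was 1.56 higher, Oprm1 1.49 lower and Tshz1 0.12 lower. Separated were 0, beside 1.28% of all genes higher and 1.68% lower without overlap. Of 8 interneuron markers of the striatum, 6 were higher on average and 5 of these by more than 1 on the log2 scale, beside 34.2% and 5.17% of all genes. Their median was 1.35, and 0 were higher without overlap, beside 1.28% of all genes. Npy, the neuropeptide Y gene, was 1.45 higher and the only one of the 8 that was higher in all 6 groups (112 to 308 against 5.15 to 204 TPM). Nos1, which marks nitric oxide interneurons and also many amygdala cells, was lower without overlap (14.0 to 29.9 against 30.6 to 111 TPM). Chat, the acetylcholine-synthesising enzyme, had 5.63, 13.6 and 30.5 TPM in the striatum-rich and 0, 3.35 and 42.2 TPM in the striatum-poor set. It was 2.67 higher and higher in 5 groups, and its SD was 0.66 in the striatum-rich and 3.35 in the striatum-poor set.

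Glial and vascular lists differed less. Median log2 differences were -0.25 for 10 oligodendrocyte, -0.49 for 8 astrocyte, 0.14 for 8 microglia and -0.01 for 8 endothelial genes. In each list 0 were separated, beside 1.28% of all genes higher and 1.68% lower without overlap. Gfap, the astrocyte intermediate filament, was 1.45 lower (30.9 to 254 against 69.8 to 483 TPM). The summed oligodendrocyte level was 1856 to 13812 TPM in the striatum-rich and 731 to 11863 TPM in the striatum-poor set. Choroid plexus stood out in single libraries: Ttr, its transthyretin gene, reached 28369 TPM in WT vehicle replicate 1, which was in the striatum-rich set, against a median of 8.49 TPM there. The part of these cells in the differences above was not tested.

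The 24 libraries at ranks 13 to 36, which neither set used, were fitted separately. In these, each gene was fitted by limma with a slope on log2 Ppp1r1b and with the 6 groups as a factor. The striatal lists had been chosen with earlier results of these data known, so counts of their members are descriptions here too. Of 25490 genes tested, 73 (0.286%) rose and 167 (0.655%) fell with Ppp1r1b at an adjusted p under 0.05, and with median-ratio scaling 99 rose and 109 fell. Of the 43 striatal list members, 10 rose and 0 fell, and the slope was positive for 39, beside 44.5% of all genes, with a median of 0.32 against -0.02 over all genes. A slope of 1 means that a gene doubled with each doubling of Ppp1r1b.

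Adora2a had the steepest slope of the 10, 1.44 ± 0.27 (SE, adjusted p = 0.0159). Drd1, of the same role, had 0.75 ± 0.17 (adjusted p = 0.0401). Of cyclic AMP and calcium signalling 7 members were called: Actn2, Rgs14, Arpp21, Gng7, Pde10a, Adcy5 and Pde1b, with slopes from 0.32 to 0.82. Both other markers missed the threshold, with a slope of 0.81 ± 0.21 (adjusted p = 0.0761) for Penk and 0.66 ± 0.28 (adjusted p = 0.322) for Drd2. Of the 14 transcription factors and 3 neuropeptides 0 passed, and Tac1 had a slope of -0.03 ± 0.20.

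**Figure D4:**
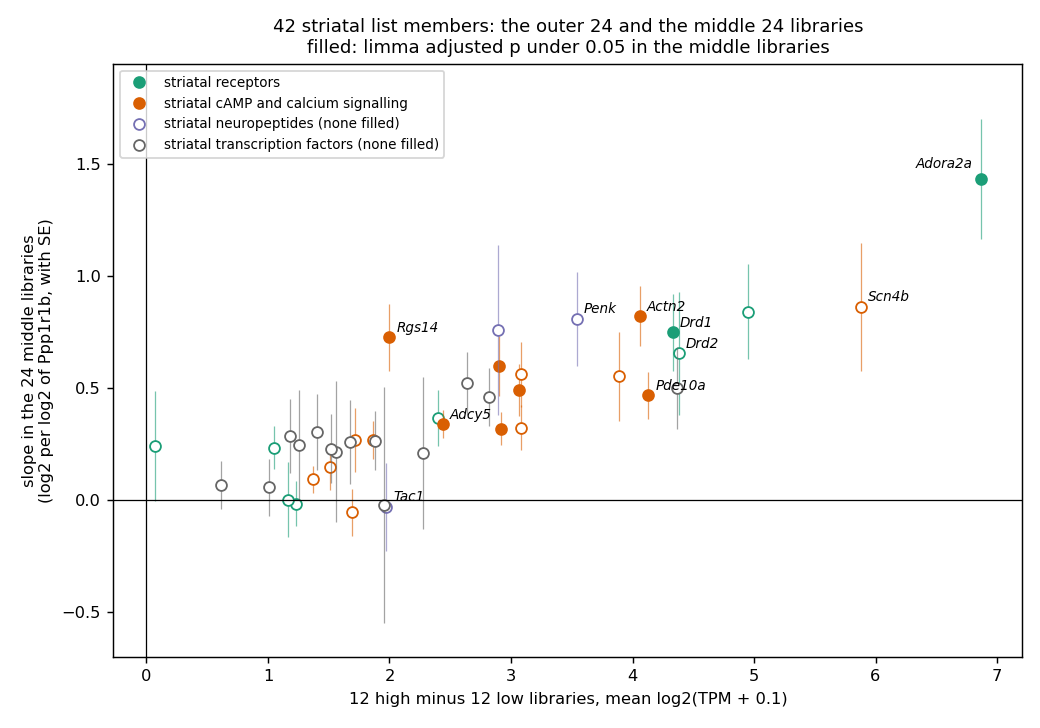
For 42 of the 43 striatal list members, the log2 difference between the outer 24 libraries (horizontal) against the limma slope on log2 Ppp1r1b in the middle 24 libraries with its SE (vertical). Filled circles mark the 9 of these with an adjusted p under 0.05, and 38 of the 42 slopes were positive.

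The 12 genes of each direction had been named by their sign in all 6 groups, middle libraries included. Their counts here are therefore descriptions and not an independent check. Of the 12 named higher genes, 6 rose in the middle libraries, beside 0.286% of all genes: Adora2a, Sh3rf2, Asb11, Cd4, Gm39043 and Lrrc10b. Sh3rf2 had a slope of 1.32 ± 0.12 and Cd4 one of 1.12 ± 0.19 (adjusted p = 0.00757). Of the 12 named lower genes Calb2 fell, with a slope of -1.23 ± 0.14, and of the hypothalamic and medial amygdala list Slc17a6 fell with -0.93 ± 0.18 (adjusted p = 0.0169) and Trh with -1.03 ± 0.23 (adjusted p = 0.0401). Wfs1, of the central amygdala list, rose with 0.55 ± 0.12 (adjusted p = 0.0401).

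These calls leaned on single libraries. Without WT FLX replicate 4, the highest of the middle libraries in Ppp1r1b, 24 genes and 0 of the 43 members were called. Leaving out Brd1+/- FLX replicate 3, WT FLX replicate 2, 3, 5 or 7, or WT vehicle replicate 2 or 7 left 4 members called. Leaving out Brd1+/- vehicle replicate 5, WT IMN replicate 1 or 7, or WT vehicle replicate 6 left 5, and leaving out Brd1+/- FLX replicate 6 left 6.

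Finally, it was asked whether the striatal genes differed between the groups set by label, and whether taking up Ppp1r1b in the fit changed what those comparisons called. By limma with 8 against 8 libraries, 0 of the 43 members passed in any of the 7 comparisons. Among all genes, 0.708%, 0.017% and 1.54% passed for Brd1+/- against WT under vehicle, IMN and FLX, 0% and 0.335% for IMN and FLX against vehicle in WT, and 0.776% and 0.731% for the same drugs in Brd1+/- mice. At an unadjusted p under 0.05, 7 members were higher in Brd1+/- FLX than in WT FLX and 0 were lower, beside 5.28% and 11.3% of all genes. Counted in either direction, 16.6% of all genes passed there, which was close to the share of members. All 7 were on the higher side and 34 of the 43 differences were positive, with a median of 0.40 against -0.06 over all genes. The smallest limma adjusted p of a member was 0.119, for Bcl11b. As the members were measured in the same punches, their signs are not independent of each other. In WT FLX against WT vehicle 1 member was higher and 8 were lower, beside 10.5% and 6.25% of all genes and 16.8% in either direction. In WT IMN against WT vehicle 1 was higher, beside 4.58% in either direction. There were 0 members for genotype under vehicle and IMN and for IMN and FLX in Brd1+/- mice, beside 8.52%, 3.58%, 9.3% and 6.94%. The genotype comparison under FLX and the comparison of FLX with vehicle in WT mice share the WT FLX libraries. That group had no striatum-rich punch, and Brd1+/- FLX had no striatum-poor one. Median Ppp1r1b was 145 TPM in both WT FLX and WT vehicle and 387 TPM in Brd1+/- FLX. The part of punch content in these differences was not tested.

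With log2 Ppp1r1b as a covariate, the number of genes called in Brd1+/- FLX against WT FLX went from 364 to 85, of which 83 were among the 364. Fezf1 and Lhx5, transcription factors of the hypothalamic list, went from a log2 difference of -3.99 (adjusted p = 0.0322) to -3.11 (adjusted p = 0.0795) and from -4.23 (adjusted p = 0.0284) to -3.49 (adjusted p = 0.0795). In WT FLX against WT vehicle the number went the other way, from 79 to 343, and included all 79. There 2 of the 43 striatal members were among the 343 called, where 23557 genes had been tested without the covariate. Both had smaller differences than without it. Actn2 went from a log2 difference of -1.77 (adjusted p = 0.226) to -1.52 (adjusted p = 0.0422), and Chrm4 from -1.48 (adjusted p = 0.128) to -1.33 (adjusted p = 0.0359). With the covariate the difference was 0.36 for Drd2 and -0.01 for Penk with adjusted p of 0.725 and 0.997. In the remaining 5 comparisons the counts went from 172 to 196, 4 to 6, 0 to 0, 188 to 237 and 178 to 185. For the 0 called in WT IMN against WT vehicle, 1084 of 23644 genes (4.58%) had an unadjusted p under 0.05.

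**Figure D5:**
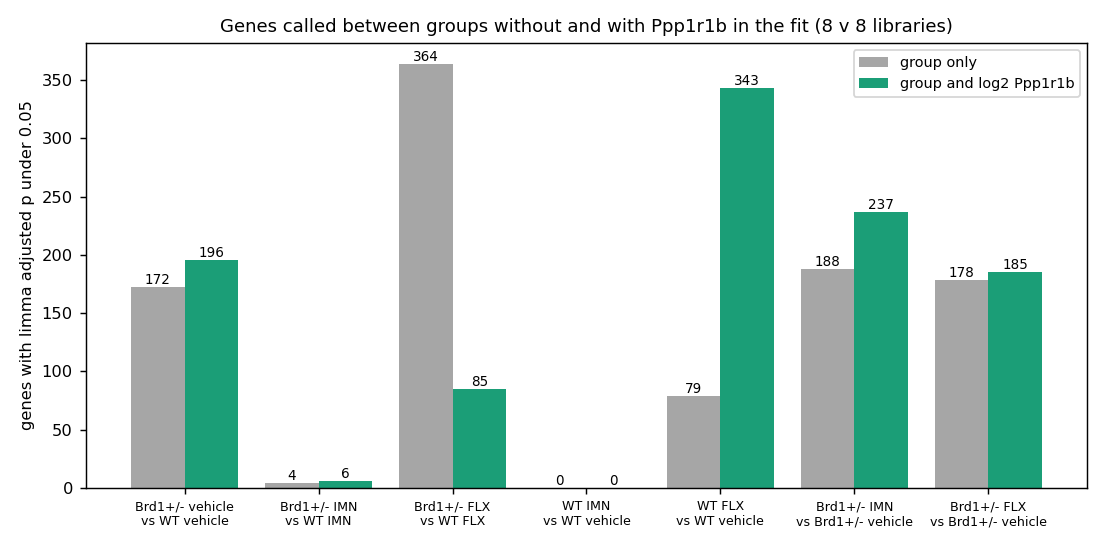
Number of genes with a limma adjusted p under 0.05 in each of the 7 comparisons of 8 against 8 libraries, with the group alone (grey) and with log2 Ppp1r1b added (green). The count went from 364 to 85 in Brd1+/- FLX against WT FLX and from 79 to 343 in WT FLX against WT vehicle.

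The counts of called genes for genotype under FLX and for FLX in WT mice also moved when 1 library was left out. They ranged from 70 (without WT FLX replicate 7) to 490 (without Brd1+/- FLX replicate 6) between genotypes, and from 1 (without WT FLX replicate 7) to 956 (without WT vehicle replicate 1) between drug and vehicle in WT mice. Between genotypes the count moved by more than 1.5 times without Brd1+/- FLX replicate 3, 5, 7 or 8 or WT FLX replicate 1, 2, 3, 5 or 7, and between drug and vehicle it did so whichever of the 16 libraries was left out.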

How the data were processed

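The authors aligned single-end reads to GRCm38 with HISAT2 2.1.0 and quantified genes with StringTie 1.3.4, after FastQC and Trimmomatic, per the submitters' processing notes and the study's methods. The deposited values are TPM for 52636 genes in 48 libraries, and 0 columns of the table were left unmapped to a sample. TPM summed to 999524 to 999772 per library, so read depth is unknown and no counting interval is given. Gene names and coordinates came from GENCODE vM21 on GRCm38, with 52489 of the identifiers found, and promoters from RefSeq. The labels number the 8 libraries of each group without naming their source animals, so p-values measure the spread between these samples.

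Values were analysed as log2(TPM + 0.1), keeping genes with at least 0.1 TPM in at least 8 libraries of a comparison. The 12 against 12 contrast was described without a test. In the 24 middle libraries, and between groups (8 against 8), genes were fitted with limma 3.58.1 in R 4.3.3 (trended empirical Bayes, Benjamini-Hochberg over all genes tested, threshold 0.05), in place of the authors' count test, since TPM are not counts. Both fits were tested on simulated data in which each gene was drawn independently, so genes that vary together were not covered. Ppp1r1b was left out of every count, except where it is the measure. Up to 12 genes per direction were named for the largest absolute difference among those whose higher set averaged 5 TPM or more and whose sign was the same in all 6 groups. Values of 1 list member are not reported here, though it stays in the counts. The members, lists and rules were chosen with earlier results of these data known.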

Additional observations from a re-analysis of the deposited data

How the results depend on the processing

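The 12 against 12 counts depended on set size and ranking. With 8 against 8 libraries 726 genes were higher and 1773 lower without overlap, with 16 against 16 they were 34 and 37 with 7 striatal members, and with 2 high and 2 low libraries per group 149 and 78. Ranking by Penk left 198 lower and median-ratio scaling 249. With other pseudocounts or scaling, chosen after seeing the data, 36 or 37 members were higher in all 6 groups. In the middle libraries, no filter on low values gave 152 genes and 4 members, no group term 158 genes, and leaving out 1 library 24 to 346 genes and 0 to 12 members. That count was under 160 without Brd1+/- FLX replicate 1, WT FLX replicate 2, 3, 4, 5 or 7, WT IMN replicate 7 or WT vehicle replicate 2 or 7.

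Between groups, no filter gave 294, 224, 51, 294 and 275 genes for genotype under vehicle, genotype under FLX, FLX in WT, IMN in Brd1+/- and FLX in Brd1+/-. A minimum of 1 TPM gave 24, 128, 23 and 24 for the same comparisons without genotype under FLX. Ppp1r1b as a covariate gave 85 for genotype under FLX, and 343 genes with 2 members for FLX in WT. Leaving out 1 library gave 80 to 349, 3 to 6 and 70 to 490 genes for genotype under vehicle, IMN and FLX, 0 to 3 and 1 to 956 for IMN and FLX in WT, and 89 to 174 and 88 to 166 in Brd1+/-. In these fits 0 members were called, except 0 to 1 for FLX in WT. The Ppp1r1b difference ranged from -0.02 to 1.09, -0.41 to 0.60, 0.81 to 1.62, -0.25 to 0.84, -0.73 to 0.22, -0.66 to 0.37 and -0.05 to 0.91 in that order of comparisons, and no p was under 0.0802.

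Replicate numbers did not pair libraries: over 120 pairs with the same number the median correlation of deviations was -0.02, and 5 of 48 libraries correlated best with their own number. With a replicate block 8 genes and 0 members were called in the middle libraries, and 63, 46, 0, 87 and 81 genes for genotype under vehicle and FLX, FLX in WT, and IMN and FLX in Brd1+/-. No difference of a named gene changed sign. The cause of these changes was not tested. As TPM carry no depth, precision rests on the libraries alone.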

Other observations

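Immediate-early genes, which neurons switch on after activity, differed in both directions between the sets chosen by Ppp1r1b. Of 12, 8 were higher in the striatum-rich set, beside 34.2% of all genes, and 4 were lower, with a median log2 difference of 0.39. Separated were 0, beside 1.28% of all genes higher and 1.68% lower without overlap. Arc, Egr1, Egr2, Npas4 and Nr4a1 were higher in all 6 groups, beside 7.15% of all genes, by 0.51 to 0.97. In the middle libraries 11 of the 12 slopes on Ppp1r1b were positive, beside 44.5% of all genes, with a median of 0.28, and 0 passed the limma threshold. Fos had 2.74, 10.3 and 38.5 TPM as lowest, median and highest level in the striatum-rich set and 23.6, 35.48 and 58.1 TPM in the striatum-poor set, and was 1.83 lower on the log2 scale and lower in all 6 groups. Arc, an effector at dendrites, had 41.6, 82.6 and 116 TPM against 16.8, 30.8 and 166 TPM, and was 0.97 higher. Junb was listed at 0 in 5 libraries of each set.

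Genes beside the ranking gene on chromosome 11 were looked at after their values had been seen. Stard3 was 0.42 higher (46.4 to 79.1 against 35.03 to 51.6 TPM), Pgap3 was 0.81 higher, and Pnmt, which makes adrenaline, reached 2.71 TPM in the striatum-rich and 0.459 TPM in the striatum-poor set. These 3 were higher in all 6 groups. Tcap, which lies between Stard3 and Pnmt, was 0.49 higher on the log2 scale but had a lower mean (0.98 against 1.11 TPM) and was higher in 4 groups, and Neurod2, on the other side of Ppp1r1b, was 0.59 lower. All 5 overlapped between the sets, unlike Ppp1r1b.

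A further locus was also picked after its values had been seen. Mir208b, listed as a microRNA gene inside the myosin gene Myh7, had 3.87 to 15.8 TPM in the striatum-rich and 0 to 2.77 TPM in the striatum-poor set. Mhrt, a noncoding RNA on the opposite strand of Myh7, had 5.26 to 12.8 against 0 to 2.53 TPM, while Myh7 itself overlapped with 7.17 to 18.0 against 3.57 to 22.3 TPM. These genes overlap on the genome and the use of strand in counting is not given in the sources used here, so the source of the reads is uncertain. In the middle libraries neither passed the limma threshold, with slopes of 1.29 ± 0.52 (adjusted p = 0.291) for Mir208b and 0.49 ± 0.29 (adjusted p = 0.539) for Mhrt.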
